A study of Homo sapiens with 15 samples.

Results

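Cytosolic ribosomal proteins are the proteins of the ribosome that translates nuclear-encoded mRNA. The 84 genes described here were chosen by symbol from the 57905 genes of the table: RPL or RPS followed by a number and at most 1 letter (A, X or L), with RPL36AL, RPLP0, RPLP1, RPLP2 and RPSA added. The rule itself uses no measured value, although the genes were chosen with earlier results of these data known, and no symbol was listed more than once. By symbol, 50 of these genes belong to the large subunit, the 3 acidic proteins of the P stalk among them, and 34 to the small subunit. They were measured by RNA sequencing in SW480, a human colorectal cancer cell line that the labels class as intestinal epithelial.

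The 12 libraries form 4 groups of 3. The group labelled PINT shRNA1 with LPS carried a stable lentiviral short hairpin RNA against the long non-coding RNA PINT and received lipopolysaccharide (LPS), a bacterial wall component, at 1 µg/ml for 4 h. The group labelled PINT shRNA1 carried the same hairpin and received PBS. The LPS group was wild-type cells given the same LPS, and the control group was wild-type cells given PBS. No non-targeting hairpin is named, so lentiviral transduction as such and the PINT hairpin cannot be told apart, and whether replicates came from separate cultures is not stated; the p-values then cover the spread of these libraries, which may be technical.

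Ribosomal protein genes are transcribed at high rates in growing cells, and most of their products join ribosomal RNA in near-equal numbers. Most of their mRNAs begin with a C and a run of pyrimidines, the 5′ terminal oligopyrimidine (5′ TOP) motif, through which the kinase mTORC1 and the RNA-binding protein LARP1 control their translation. Some unassembled ribosomal proteins bind the ubiquitin ligase MDM2. The series title links PINT to NF-κB, the transcription factor that LPS activates.

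Levels are given in FPKM, fragments counted per kilobase of a transcript and scaled to all mapped fragments. This is a relative measure, so a level can move because other transcripts take a different share. With control replicate 1 taken as 1, relative depth was 1.3 to 1.51 in PINT shRNA1 with LPS, 0.914 to 1.05 in PINT shRNA1, 0.848 to 0.858 in LPS and 0.809 to 1 in control, and absolute depth is unknown. Genes above 0 FPKM numbered 30950 to 31961 in PINT shRNA1 with LPS and 30725 to 31159 in PINT shRNA1. They numbered 27078 to 27425 in LPS and 27536 to 28430 in control, below every hairpin library. Mitochondrially encoded transcripts took 22.9% to 24.8% of all FPKM in the 6 hairpin libraries and 24.7% to 25.9% in the other 6. The 6 epithelial markers checked summed to 1428 to 1592 FPKM in hairpin libraries and 2331 to 2657 FPKM in the others. Leukocyte markers summed to at most 4.40 FPKM, fibroblast markers to at most 1.32 and endothelial markers to at most 0.322. In bulk RNA, fewer cells of a type and less RNA per cell cannot be told apart.

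The hairpin's target went against its label. LINC-PINT, the gene of PINT, had 3.54, 4.00 and 4.08 FPKM in PINT shRNA1 with LPS, 4.55, 5.26 and 5.34 in PINT shRNA1, 2.40, 2.82 and 1.91 in LPS and 2.88, 2.56 and 2.51 in control. It was higher, not lower, in libraries labelled with the hairpin, by 0.81 without LPS (log2 fold change, adjusted p = 5.92e-04) and 0.61 with LPS (adjusted p = 0.00284). PINT shRNA1 is therefore used below only as the name of the libraries so labelled.

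Ribosomal protein genes were among the most abundant transcripts of the cells. Their FPKM together made up 7.57% to 7.79% of the library total in PINT shRNA1 with LPS, 7.88% to 8.17% in PINT shRNA1, 8.25% to 8.38% in LPS and 8.14% to 8.42% in control. The PINT shRNA1 with LPS libraries lay below all 9 others. The PINT shRNA1 libraries lay below the LPS libraries and overlapped control. Of the total without mitochondrially encoded genes, the shares were 9.92% to 10.24% in PINT shRNA1 with LPS, 10.29% to 10.59% in PINT shRNA1, 11.02% to 11.21% in LPS and 10.98% to 11.20% in control. On that total all 6 hairpin-labelled libraries lay below the 6 others, and LPS and control overlapped. Without RPL41 the shares of the whole total were 7.37% to 7.59%, 7.69% to 7.96%, 7.89% to 8.0% and 7.78% to 8.05% in the same order of groups. The 2 subunits kept a near-constant ratio: large-subunit FPKM were 1.52 to 1.58 times small-subunit FPKM in PINT shRNA1 with LPS, 1.5 to 1.54 times in PINT shRNA1, 1.58 to 1.6 times in LPS and 1.53 to 1.6 times in control.

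**Figure D1:**
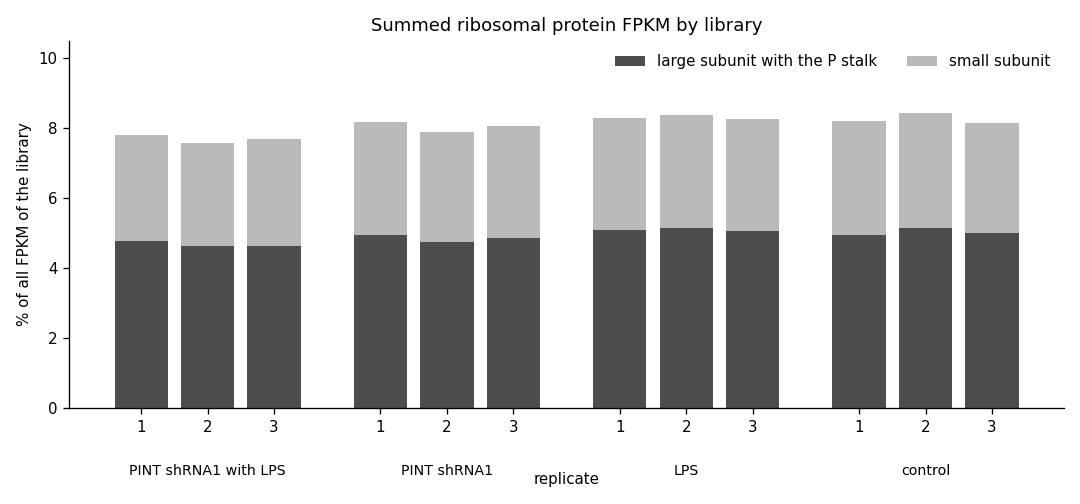
Ribosomal protein FPKM as a percentage of all FPKM of each of the 12 libraries (y axis), split into the large subunit with the P stalk and the small subunit. The 3 PINT shRNA1 with LPS libraries, at 7.57% to 7.79%, are the lowest bars, and all 12 lie between 7.57% and 8.42%.

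Levels of single members spread widely although most of their products are needed in near-equal numbers. Over the 12 libraries the mean was 360 FPKM for the median tested member, with RPL41 (1180 FPKM), RPL39 (1021), RPL21 (967), RPL12 (916) and RPS24 (872) at the top. RPL41, with 25 codons, has the shortest reading frame of the members, and RPL39 has 51. Among the 79 tested members with a coding length, level and length had a Spearman correlation of 0.307, given as a description only, with FPKM already divided by transcript length. At the bottom stood RPL10L, RPL39L and RPL3L, paralogues of RPL10, RPL39 and RPL3 whose expression is best known from testis or striated muscle. Their means were 0.000177, 0.0027 and 0.326 FPKM, below the filter of 0.5 FPKM in at least 3 libraries, so 81 members were tested. RPS10L (0.527 FPKM) and RPS27L (14.1 FPKM) were the lowest tested. The paralogue pairs were thus unequal: RPS27L stood beside RPS27 at 540.2 FPKM, whereas RPL36AL at 111 FPKM stood beside RPL36A at 383 FPKM. RPL36A is also part of a read-through transcript listed apart, RPL36A-HNRNPH2, so its value depends on how fragments were divided.

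**Figure D2:**
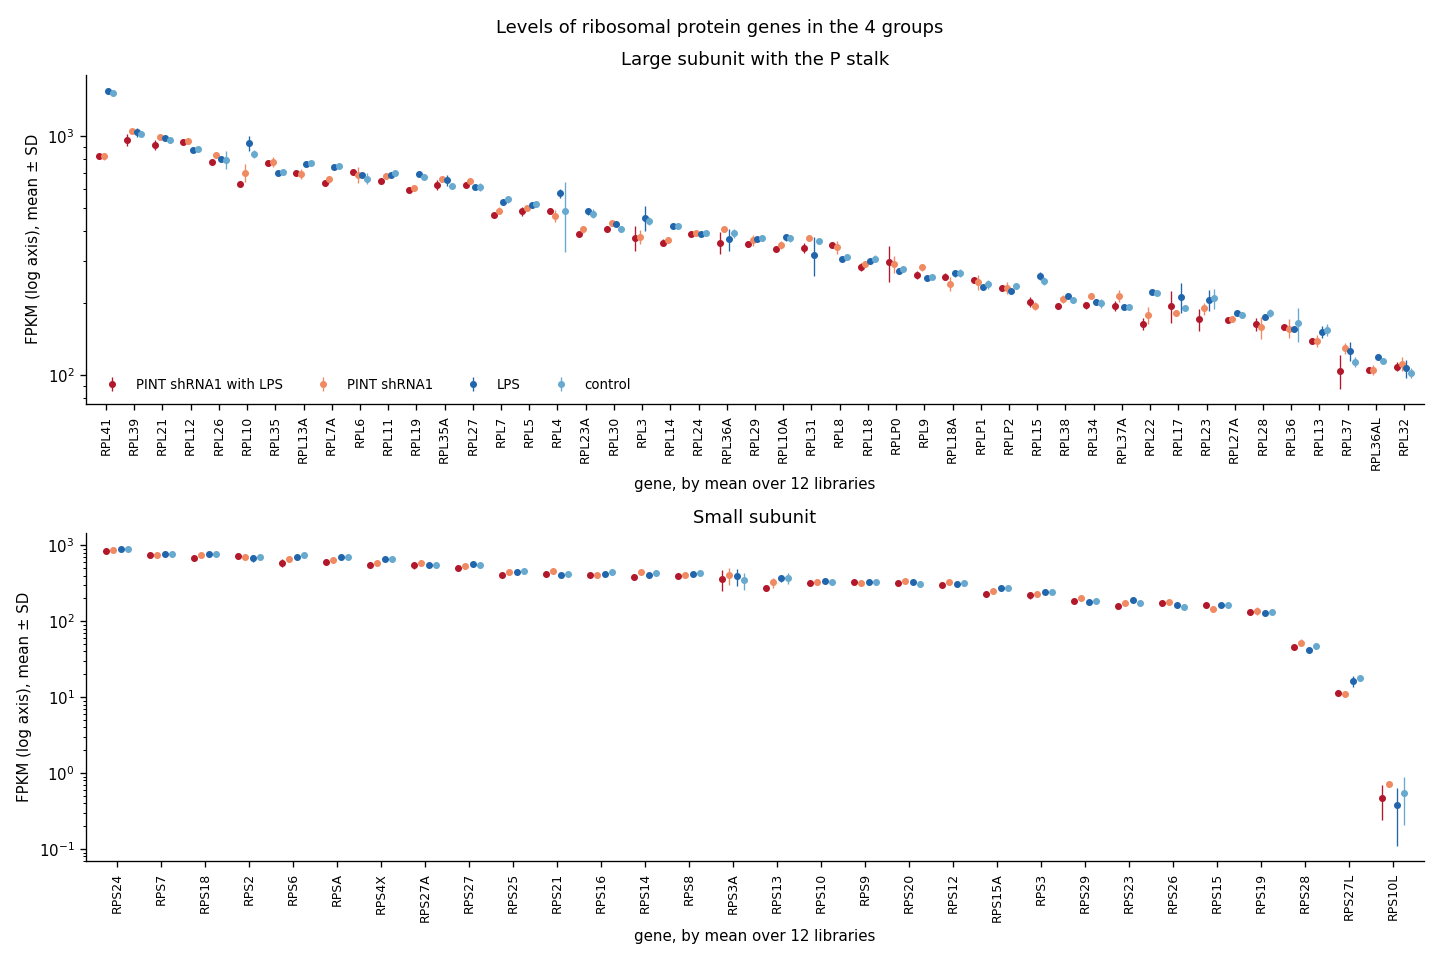
FPKM of 77 of the 81 tested members (log axis), ordered by mean over 12 libraries, for the large subunit with the P stalk (upper panel) and the small subunit (lower panel). Points are group means and bars SD over 3 libraries. The groups lie on one another for most genes, and RPL41 shows the widest gap, with group means of 827 and 824 FPKM in the 2 hairpin groups against 1545 and 1524 FPKM in LPS and control.

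Libraries of a group agreed closely for most members. The median within-group SD was 0.0576 on the log2 scale, against 0.0621 for 404 other genes averaging 100 FPKM or more and 0.142 for all 17214 tested genes. A few members were noisy. RPS3A, a small-subunit protein, had the largest within-group SD, at 0.384, and its values ran over 262, 333 and 479.6 FPKM in PINT shRNA1 with LPS and 309.8, 440.3 and 283 FPKM in control. RPL4, a large-subunit protein, had 304, 571 and 585 FPKM in control, where replicate 1 stood apart. Neither gene was called in any comparison, a call being an adjusted p under 0.05 in limma over all tested genes.

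The start of most members' transcripts carried the pyrimidine tract. RefSeq (GRCh38.p14) windows from 250 bases before to 50 bases after the annotated start were at hand for 65 members, and 46 of them (70.8%) began with a C and at least 4 further pyrimidines on the sense strand, against 5.1% of the 27305 genes of the table with a window. Within 10 bases of the start such a tract occurred in 89.2% of members and 38.4% of all genes. The motif CCGGAAG, read on both strands, was in a window of 35.4% of members and 12.2% of all genes, and TCTCGCGA in 18.5% and 1.4%. TATAA was in a window of 20% of members and 24.2% of all genes. None of the 3 motifs contains another. Windows of 15 bases before to 15 bases from the start follow for members that the comparisons below turn on, with RPL22L1, the paralogue of RPL22. Capitals mark a tract at the annotated start.
RPL41 (chr12:56116618-56116647, plus strand): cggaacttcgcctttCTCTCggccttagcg
RPL22 (chr1:6199581-6199610, minus strand): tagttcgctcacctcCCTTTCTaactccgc
RPL22L1 (chr3:170870181-170870210, minus strand): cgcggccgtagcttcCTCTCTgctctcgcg
RPL14 (chr3:40457324-40457353, plus strand): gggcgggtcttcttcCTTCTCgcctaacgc
RPSA (chr3:39406705-39406734, plus strand): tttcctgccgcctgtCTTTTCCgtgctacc
RPL12 (chr9:127451392-127451421, minus strand): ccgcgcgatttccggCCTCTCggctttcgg
RPL35 (chr9:124861943-124861972, minus strand): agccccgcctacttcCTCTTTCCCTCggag
RPS27L (chr15:63157463-63157492, minus strand): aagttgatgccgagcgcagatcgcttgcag
RPS26 (chr12:56041903-56041932, plus strand): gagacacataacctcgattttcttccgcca
RPS4X (chrX:72277234-72277263, minus strand): gcagtctccagccccaatttctacgcgcac
RPL41, RPL22, RPL14 and RPSA were lower and RPL12 and RPL35 higher in hairpin libraries, so members on both sides begin with a tract of this kind. RPS27L and RPS4X, both lower, have no such tract within 10 bases of the annotated start. In RPS26, which was higher, it lies near the start but not at it.

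The first comparison asks what LPS did in cells without a hairpin. No member was called, beside 2.76% of all 17214 tested genes called in either direction (limma, Benjamini-Hochberg adjustment). At an unadjusted p under 0.05 there were 4 members, and the share of all tested genes at that threshold is not given here. The median log2 fold change of the 81 members was -0.0046, against -0.038 for all tested genes, and 70 members lay within 0.1 of 0. The smallest adjusted p belonged to RPS23, a small-subunit protein of the decoding centre, with 186, 196 and 191 FPKM in LPS and 173, 174 and 179 FPKM in control. Its LPS libraries all lay above the control libraries, by 0.12 ± 0.04 (log2, SE), which did not pass the test (adjusted p = 0.158). RPS26, a small-subunit protein at the mRNA exit, had 163, 161 and 160.2 FPKM in LPS and 154, 150.1 and 156 FPKM in control, again without overlap and not called (log2 fold change 0.08, adjusted p = 0.215). RPL41 had 1545 ± 21.2 FPKM in LPS and 1524 ± 33.7 FPKM in control (SD, n = 3 each), with overlapping libraries.

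The next pair of comparisons asks what differed in cells labelled with the PINT hairpin. In PINT shRNA1 against control, 16 of the 81 members fell (19.8%) and 8 rose (9.88%), against a background of 10.3% of all tested genes called lower and 16.9% called higher. In PINT shRNA1 with LPS against LPS, 28 members fell (34.6%) and 4 rose (4.94%), against 11.6% of all tested genes lower and 17.7% higher. Among the 404 other genes that averaged 100 FPKM or more, which resemble the members in abundance, 21.5% were lower and 22.3% higher in PINT shRNA1, and 22.8% and 17.6% in PINT shRNA1 with LPS. The members' share called lower thus lay near that of other abundant genes without LPS and above it with LPS, a difference that was not tested. The shifts were small, with a median log2 fold change of -0.03 without LPS and -0.08 with LPS, against 0.06 and 0.05 for all tested genes. Of the 6 epithelial markers, 5 were called lower in each comparison. The part of these markers, of depth and of the number of genes above 0 FPKM in the members' values was not tested.

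These counts depend on how libraries are scaled. The shares of all tested genes called under each alternative are not given here. The counts below therefore do not show whether members moved more than other genes. With each library divided by its median ratio to the mean library, 31 members were called lower and 1 higher in PINT shRNA1, and 42 and 1 in PINT shRNA1 with LPS. With 75th percentile scaling the split was 26 lower and 4 higher, and 33 and 4. With a common total that leaves out mitochondrially encoded genes it was 20 and 4, and 29 and 4. The 8 members called higher in PINT shRNA1 became 4, 5 and 3 without control replicate 1, 2 and 3, 5 without LPS replicate 3, 3 without PINT shRNA1 replicate 1 or 3, and 4 without PINT shRNA1 with LPS replicate 1. The 28 called lower in PINT shRNA1 with LPS became 18 without its replicate 2.

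By subunit, 11 large-subunit members of 44 tested outside the P stalk fell and 5 rose in PINT shRNA1, with 15 and 3 in PINT shRNA1 with LPS. Of the 34 small-subunit members, 5 fell and 3 rose in PINT shRNA1, and 13 fell and 1 rose in PINT shRNA1 with LPS. No P stalk protein was called in either. RPLP0, the stalk's scaffold, had 297 ± 51.5 FPKM in PINT shRNA1 with LPS and 273 ± 7.59 FPKM in LPS, and 291 ± 22.8 FPKM in PINT shRNA1 and 278 ± 5.60 FPKM in control (SD, n = 3 each), and its groups overlapped.

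The 2 hairpin comparisons share no library, although both hairpin groups carry the same construct and both wild-type groups are the same cells. The comparisons also share, for each gene, 1 estimate of spread from all 12 libraries, so their calls are not independent. Called lower in both were 15 members, which are 93.75% of the 16 lower without LPS and 53.57% of the 28 lower with LPS. Called higher in both were 4, which are 50% of the 8 and 100% of the 4. None was called in opposite directions, and 65 of 81 fold changes had the same sign. The matching shares over all tested genes are not given here, so this overlap is not shown to be particular to the members. Across members the 2 sets of fold changes had a Pearson correlation of 0.818 (0.753 without RPL41), beside 0.693 across all tested genes, given as descriptions over genes that share libraries. Among the 15 were RPL7, RPL7A, RPL10, RPL13A, RPL14, RPL15, RPL19, RPL22, RPL23A and RPL41 of the large subunit and RPSA, RPS4X, RPS15A and RPS27L of the small subunit.

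**Figure D3:**
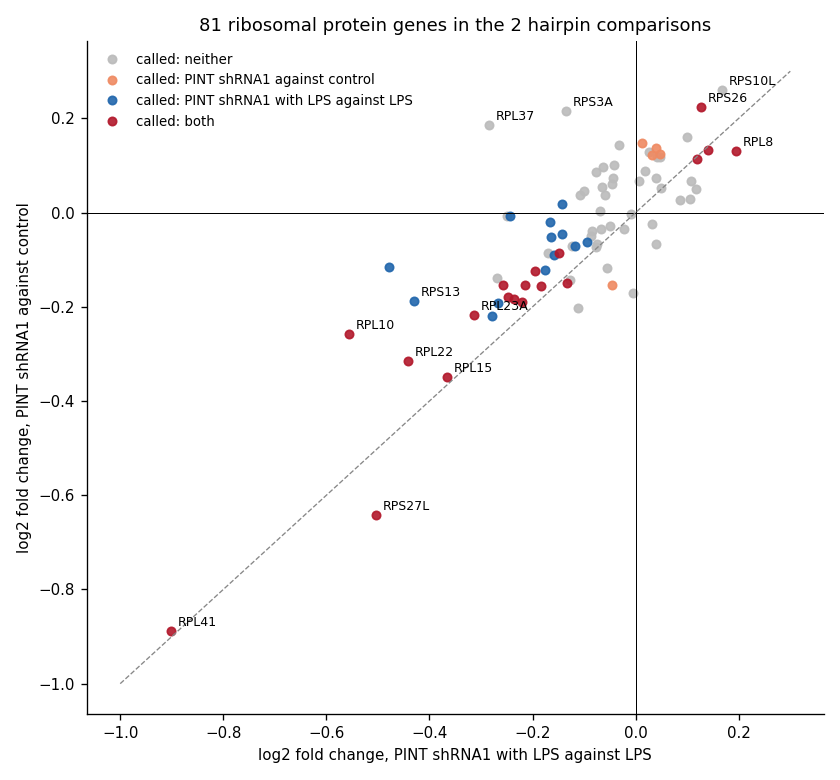
Log2 fold change of each of the 81 tested members in PINT shRNA1 with LPS against LPS (x axis) and in PINT shRNA1 against control (y axis), coloured by the comparison in which it was called; the dashed line marks equal values. RPL41, at -0.90 and -0.89, and RPS27L, at -0.50 and -0.64, lie far from the cloud, most of which sits within 0.3 of 0.

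RPL41 showed the largest difference of any member in both comparisons. It encodes a very short basic protein of the large subunit. It had 828, 819.6 and 833 FPKM in PINT shRNA1 with LPS, against 1553, 1562 and 1521 FPKM in LPS. Without LPS it had 829, 792 and 850.4 FPKM in PINT shRNA1, against 1488, 1554 and 1530.3 FPKM in control. The 6 hairpin libraries lay far below the other 6, with no overlap. The log2 fold change was -0.90 ± 0.03 with LPS (SE, adjusted p = 1.50e-08) and -0.89 ± 0.03 without LPS (adjusted p = 2.32e-08), or 0.535 and 0.541 times the level of the matching group. It was called in all 23 alternative analyses of each comparison. RPL41P1, listed as an RPL41 pseudogene, had 77.8, 71.4 and 75.9 FPKM in PINT shRNA1 with LPS and 143, 150.1 and 105 FPKM in LPS. It had 68.5, 67.9 and 63.4 FPKM in PINT shRNA1 and 142, 113 and 123 FPKM in control, so it fell with its parent (log2 fold changes -0.80 and -0.91). Fragments of the 2 loci may have been divided between them by the counting, so the values of each are uncertain, but both fell by similar amounts.

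RPS27L had the next lowest fold change without LPS. It is a paralogue of RPS27. It had 12.2, 10.4 and 10.8 FPKM in PINT shRNA1, against 17.4, 18.3 and 17.2 FPKM in control (log2 fold change -0.64 ± 0.11, SE, adjusted p = 0.00134). With LPS it had 10.8, 10.9 and 12.01 FPKM in PINT shRNA1 with LPS, against 17.0, 18.5 and 13.3 FPKM in LPS (-0.50 ± 0.11, adjusted p = 0.00497). Every hairpin library lay below every other library in both. The abundant paralogue RPS27 differed less, with 509.9 ± 22.5 FPKM in PINT shRNA1 with LPS and 563 ± 10.6 FPKM in LPS (SD, n = 3 each; log2 fold change -0.14, called). RPS27 was not called in PINT shRNA1 against control (-0.05, adjusted p = 0.402).

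RPL10, which joins the large subunit late in its assembly, was lower in both comparisons. It had 637, 627 and 636 FPKM in PINT shRNA1 with LPS, against 854, 977 and 969.6 FPKM in LPS (-0.56 ± 0.07, log2, SE, adjusted p = 1.46e-04). It had 775, 651 and 689 FPKM in PINT shRNA1, against 804, 857 and 862 FPKM in control (-0.26 ± 0.07, adjusted p = 0.0150). The groups did not overlap, but PINT shRNA1 replicate 1 came close to the lowest control library, and without PINT shRNA1 replicate 2 the second call was lost (log2 fold change -0.20, adjusted p = 0.0554). The 2 fold changes were not shown to differ by the test of the interaction (-0.30, adjusted p = 0.449).

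RPL22 and its paralogue RPL22L1 moved in opposite directions. RPL22 is a large-subunit protein that binds RNA outside the ribosome as well, and RPL22L1 can take its place. RPL22 had 154, 172 and 166 FPKM in PINT shRNA1 with LPS, against 221, 226 and 220.0 FPKM in LPS, and 189.7, 161 and 184 FPKM in PINT shRNA1, against 216, 223 and 225 FPKM in control. All hairpin libraries were lower (log2 fold changes -0.44 and -0.32, SE 0.06 each, adjusted p = 3.22e-04 and 0.00274). RPL22L1 had 39.7, 45.7 and 47.5 FPKM in PINT shRNA1 with LPS, against 32.4, 23.9 and 28.5 FPKM in LPS, and 44.3, 41.8 and 43.7 FPKM in PINT shRNA1, against 29.5, 35.0 and 32.2 FPKM in control. All hairpin libraries were higher (0.64 and 0.42, SE 0.10 each, adjusted p = 0.00107 and 0.0128). RPL22 stayed the more abundant of the pair in every library. The paralogues RPL26L1 and RPL7L1 were not called in either comparison. RPL26L1 had 39.3 ± 4.17 FPKM in PINT shRNA1 with LPS and 36.7 ± 5.89 FPKM in LPS, and RPL7L1 had 31.2 ± 2.38 and 42.3 ± 9.46 FPKM in these groups (SD, n = 3 each).

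RPL15, a large-subunit protein needed for assembly of that subunit, had 195, 214 and 199 FPKM in PINT shRNA1 with LPS, against 259, 273 and 252 FPKM in LPS. It had 186, 202 and 196 FPKM in PINT shRNA1, against 240.2, 258 and 246 FPKM in control. The groups did not overlap (log2 fold changes -0.37 and -0.35, SE 0.05 each, adjusted p = 3.16e-04 and 4.68e-04). RPL23A, which lies at the exit of the nascent peptide, had 390.4 ± 1.11 FPKM in PINT shRNA1 with LPS and 485 ± 17.4 FPKM in LPS, and 408 ± 13.8 FPKM in PINT shRNA1 and 474 ± 20.9 FPKM in control (SD, n = 3 each). The large-subunit proteins RPL7A and RPL14 fell by similar amounts, RPL7A by 0.22 with LPS and 0.19 without, and RPL14 by 0.24 and 0.18 (log2). RPSA, the small-subunit protein also known as the laminin receptor, fell by 0.19 with LPS and 0.12 without. RPS4X, an X-linked small-subunit protein, fell by 0.25 and 0.18. In both comparisons 10 members were called lower under all 23 alternatives: RPL41, RPS27L, RPL7, RPL7A, RPL14, RPL15, RPL19, RPL22, RPL23A and RPS4X.

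**Figure D4:**
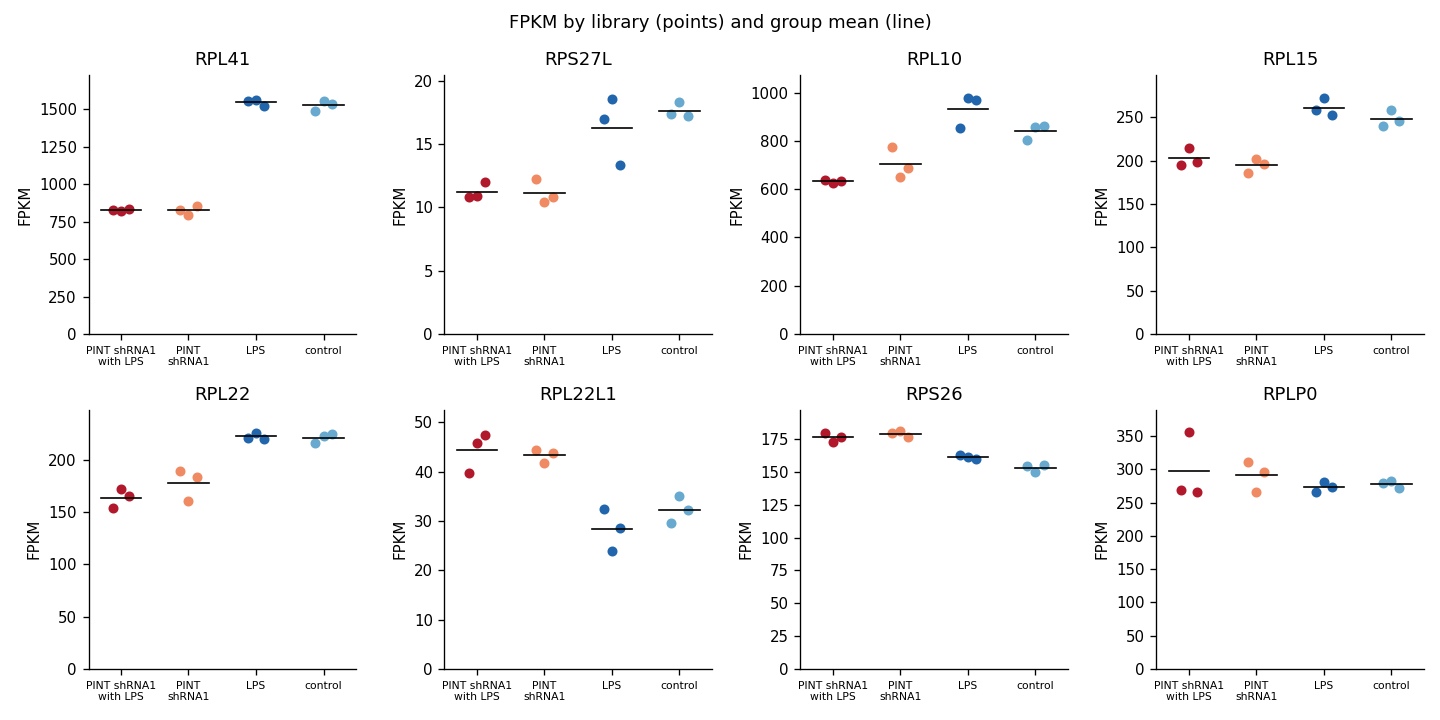
FPKM of 7 members and of RPL22L1 in each library (points) with the group mean (line), for the 4 groups of 3. RPL41, RPS27L, RPL10, RPL15 and RPL22 are lower and RPL22L1 and RPS26 higher in both hairpin groups, whereas the groups of RPLP0 overlap.

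Another 13 members were called lower with LPS and not without, and RPS13 had one of the lowest fold changes among them. This small-subunit protein had 275, 262 and 276 FPKM in PINT shRNA1 with LPS, against 386, 319 and 395 FPKM in LPS (-0.43 ± 0.13, adjusted p = 0.0262), and it lost its call without LPS replicate 1 or 3 or any one PINT shRNA1 with LPS library. It was not called in PINT shRNA1 against control (-0.19, adjusted p = 0.308). RPS13 shares a strand with an overlapping gene, PIK3C2A, in GENCODE 29. Also in this set were RPL3, RPL10A, RPL27A, RPL36AL, RPL38, RPS6, RPS18, RPS23, RPS24, RPS25 and RPS27.

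A smaller group rose. RPS26 had 179.5, 181 and 177 FPKM in PINT shRNA1, against 154, 150.1 and 156 FPKM in control (0.22 ± 0.03, log2, SE, adjusted p = 2.73e-04), a call that all 23 alternatives kept. With LPS it had 179.5, 173 and 177 FPKM in PINT shRNA1 with LPS, against 163, 161 and 160.2 FPKM in LPS (0.13, adjusted p = 0.00743). RPL8, which lies near the peptidyl transferase centre, had 347, 354 and 354 FPKM in PINT shRNA1 with LPS, against 309, 307 and 305 FPKM in LPS (0.20 ± 0.04, adjusted p = 0.00560), also kept in all 23. Without LPS its call (0.13, adjusted p = 0.0406) was lost in 18 of 23. RPL12, which binds ribosomal RNA at the base of the P stalk, rose by 0.12 with LPS and 0.11 without (log2). RPL35, at the exit of the nascent peptide, rose by 0.14 and 0.13. RPL9 and RPL37A were called higher in PINT shRNA1 against control and not with LPS, by 0.14 and 0.15. Median scaling ended 7 of the 8 calls without LPS and 3 of the 4 with LPS.

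RPL5 and RPL11, which bind MDM2 together with ribosomal RNA, were not called. RPL5 had 485 ± 22.1 FPKM in PINT shRNA1 with LPS and 514 ± 4.35 FPKM in LPS (log2 fold change -0.09, adjusted p = 0.0849), and RPL11 had 649 ± 14.8 and 688 ± 12.4 FPKM (SD, n = 3 each; -0.08, adjusted p = 0.0869). In PINT shRNA1 against control the log2 fold changes were -0.05 for RPL5 and -0.04 for RPL11. Of 9 tested genes of the ribosomal stress response, 2 rose and 2 fell in PINT shRNA1, and 3 fell with LPS. Among all tested genes, 16.9% rose and 10.3% fell in PINT shRNA1, and 11.6% fell in PINT shRNA1 with LPS. CDKN1A, a cell cycle inhibitor, had 13.5, 11.8 and 14.3 FPKM in PINT shRNA1 and 33.1, 32.5 and 30.5 FPKM in control (-1.25, adjusted p = 0.0130). MDM2 fell by 0.59 with LPS (log2).

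LPS in hairpin-labelled cells left every member below the threshold. In PINT shRNA1 with LPS against PINT shRNA1 no member was called, beside 0.186% of all tested genes, and 21 members had an unadjusted p under 0.05 (limma). The share of all tested genes at that unadjusted threshold is not given here, so the 21 have no background beside them. The signs leaned one way, with 64 of 81 fold changes negative and a median of -0.06 (log2). That is 79.0% of members, against 62.1% of all tested genes and 46.5% of the 404 other abundant genes. RPS25, a small-subunit protein, had the smallest adjusted p, with 402 ± 14.9 FPKM in PINT shRNA1 with LPS and 442 ± 8.23 FPKM in PINT shRNA1 (SD, n = 3 each; -0.14, adjusted p = 0.249). The interaction, which tests whether the response to LPS differed between hairpin and wild-type cells, called no member and 0.128% of all tested genes. At an unadjusted p under 0.05 it had 12 members, again without the share of all tested genes at that threshold. The median of the interaction was -0.07, with 64 of 81 negative (79.0%, against 50.3% of all tested genes and 60.9% of the 404 other abundant genes). RPS23 came closest (-0.24 ± 0.06, log2, SE, adjusted p = 0.297). The larger count of members called lower with LPS than without was therefore not a difference shown for any single member. Depth moved with these groups, since PINT shRNA1 with LPS was the deepest group, and its part in the result was not tested.

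Other genes of the ribosome and its production had calls in both directions. Beside these lists, 16.9% of all tested genes were called higher and 10.3% lower in PINT shRNA1. In PINT shRNA1 with LPS the shares of all tested genes were 17.7% and 11.6%. Mitochondrial ribosomal proteins, which form a separate ribosome, had 6 of 75 higher and 4 lower in PINT shRNA1, and 5 and 8 in PINT shRNA1 with LPS, with medians of 0.01 and -0.02 (log2). MRPL33, a protein of the mitochondrial large subunit, had 91.9, 88.5 and 99.0 FPKM in PINT shRNA1 with LPS and 51.2, 53.6 and 55.1 FPKM in LPS (0.80, adjusted p = 1.20e-05), and it rose by 0.89 without LPS. Of 48 ribosome biogenesis factors, 14 rose and 5 fell in PINT shRNA1, and 6 rose and 8 fell in PINT shRNA1 with LPS. GNL3 and NOP56, nucleolar assembly factors, rose by 0.35 and 0.23 in PINT shRNA1, while WDR43 and NCL, a nucleolar processing factor and nucleolin, fell by 0.27 and 0.20. This was the list with the most calls for LPS against control, 3 of 48, all higher, beside 1.57% of all tested genes called higher. DDX21, a nucleolar helicase, had 118, 118 and 122 FPKM in LPS and 97.5, 99.9 and 99.1 FPKM in control (0.27, adjusted p = 0.00145), and WDR43 and NCL rose by 0.21 and 0.13. RNA polymerase I genes had 4 of 15 higher and 1 lower in PINT shRNA1, and 2 and 1 in PINT shRNA1 with LPS.

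Genes that share the 5′ TOP start with the members did not all follow them. Of 23 such translation genes, RPL22L1 among them, 6 rose and 3 fell in PINT shRNA1, and 6 rose and 6 fell in PINT shRNA1 with LPS. Among all tested genes, 16.9% rose and 10.3% fell in PINT shRNA1, and 17.7% and 11.6% in PINT shRNA1 with LPS. EIF3E and EIF4B, initiation factors, fell by 0.35 and 0.37 with LPS, whereas IMPDH2, which makes guanine nucleotides, rose by 0.26 and PABPC4, a poly(A)-binding protein, rose by 0.25 (log2). Of 10 snoRNA host transcripts with a 5′ TOP, 5 rose and none fell in PINT shRNA1, and 2 rose with LPS (limma, with no host lower in either at the adjusted threshold). SNHG1 had 98.7, 98.1 and 118 FPKM in PINT shRNA1 and 76.6, 83.0 and 62.9 FPKM in control (0.50, adjusted p = 0.00408). Among 19 tested regulators of mTORC1 and of 5′ TOP mRNAs, 3 rose and 3 fell in PINT shRNA1, and 3 and 2 with LPS. The kinase MTOR had 20.9 ± 1.12 FPKM in PINT shRNA1 and 16.5 ± 0.537 FPKM in control (SD, n = 3 each; 0.34), and LARP1 fell by 0.15.

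**Figure D5:**
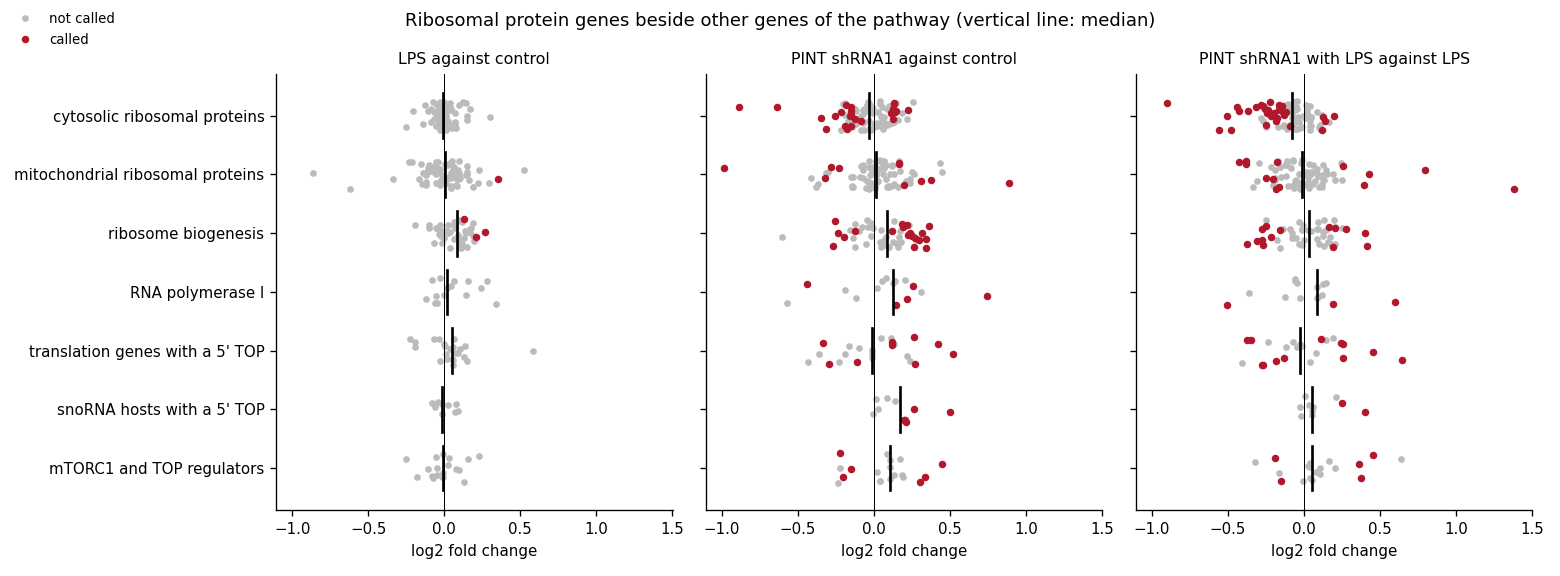
Log2 fold change of each tested gene (x axis) in the members and 6 other lists of the pathway (rows), for LPS against control, PINT shRNA1 against control and PINT shRNA1 with LPS against LPS. Each point is a gene, red where called, and the vertical bar is the list's median. The members centre on 0 with none called in the LPS panel, and extend further to the left than to the right in the hairpin panels.

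The members with a tract at the annotated start and those without differed in level more than in response. The 46 with a tract had a median level of 388 FPKM and the 18 tested members without one 246 FPKM. Their median log2 fold changes were -0.02 and -0.05 in PINT shRNA1 against control, and -0.08 and -0.09 in PINT shRNA1 with LPS against LPS. Most of the 18 have a tract within 10 bases of the annotated start, RPL15, RPL19 and RPS26 among them. The split thus depends on where the start is annotated and cannot tell mRNAs with a 5′ TOP from those without. Coding length and fold change had Spearman correlations of -0.318 in PINT shRNA1 against control and -0.193 in PINT shRNA1 with LPS against LPS over 79 members, given as descriptions of genes that share libraries. In GENCODE 29, 28 members overlap a snoRNA gene on either strand. With small RNA genes left out, 15 members overlap a gene on the same strand and 37 an antisense gene. Whether the counting used strand is not given in the sources used here, so their values may include fragments of the neighbour. RPL10, RPL15, RPL22, RPS26 and RPS27L are among those with an antisense gene. RPL41 overlaps none of the genes counted here.

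Ribosomal proteins with symbols outside the rule were looked at too. FAU, the precursor of a small-subunit protein, and GNB2L1, a scaffold on the small subunit also called RACK1, were not called. GNB2L1 had 249 ± 8.21 FPKM in PINT shRNA1 with LPS and 249 ± 11.9 FPKM in LPS, and FAU had 101 ± 4.62 and 106 ± 3.94 FPKM (SD, n = 3 each). Of 844 listed ribosomal protein pseudogenes, 105 were tested, with 10 higher and 7 lower in PINT shRNA1, and 7 and 7 in PINT shRNA1 with LPS. They took 0.200% to 0.232% of all FPKM of a library. Of all tested genes, 16.9% were called higher and 10.3% lower in PINT shRNA1, and 17.7% and 11.6% in PINT shRNA1 with LPS. RPSAP47, listed as a pseudogene of RPSA, fell by 0.24 with LPS and 0.19 without, beside 0.19 and 0.12 for RPSA itself, and whether its fragments come from RPSA mRNA was not tested.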

How the data were processed

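FPKM per gene were deposited by the authors in 1 table, with 1 column for each RNA number. Per the submitters' processing notes, the tools were HISAT2 2.1.0 and StringTie 1.3.4d with fastp, and the build was GRCh37/hg19; their roles are not given. Annotation, strand use and filters are not given in the sources used here. There are 15 labelled samples, since PINT shRNA1 has 3 RNA numbers with 2 samples apiece, and whether such a column holds 1 or both is not recorded. Another 6 columns were not used here.

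The 17214 genes that reached 0.5 FPKM in 3 or more of the 12 libraries were tested as log2(FPKM + 0.5), so fold changes of low genes are understated. A group-means fit of all 12 libraries was made with limma 3.58.1 in R 4.3.3, moderated with an intensity trend. Contrasts were two-sided, p-values were adjusted by Benjamini-Hochberg over every tested gene, and calls needed an adjusted p below 0.05. FPKM give no counting error, and SEs of the fit are printed instead. The fit was tested on simulated data. Relative depth is the modal ratio between 2 libraries over low FPKM. Group labels came from the sample titles and sources.

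The members and the lists of other genes were chosen with earlier results of these data known. Named were the members with up to 8 of the highest and 8 of the lowest fold changes among those called, the 5 most and 5 least abundant, the paralogue pairs, up to 4 genes of each list and LINC-PINT; other names were chosen after their values were seen, and a few genes are not reported here. Promoter windows came from RefSeq (GRCh38.p14), matched by symbol, and 65 of 84 members matched. Coding lengths and overlaps came from GENCODE 29, also of another build than the table. Scaling, pseudocount, filter, variance model, a replicate term, the samples in the fit and leaving out each library were varied.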

Additional observations from a re-analysis of the deposited data

How the results depend on the processing

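The interaction and both LPS comparisons, in hairpin and in wild-type cells, kept their counts of 0 called members in every alternative run, and no called member changed sign. Of members called higher in PINT shRNA1 against control (8), 4 were left with 75th percentile scaling, 4 with a common total without mitochondrial genes, 1 with median scaling, 2 with no filter, 1 with no intensity trend and 4 with only the groups compared. Leaving out 1 library gave 3 to 7. With a replicate block the count was 4 instead of 8; replicate numbers did not pair the libraries, since the correlations of 18 same-numbered pairs lay between -0.0476 and 0.0569 and 4 of 12 libraries matched their own number best. Of members called higher in PINT shRNA1 with LPS against LPS (4), 1 was left with median scaling and 1 with no intensity trend, and leaving out 1 library gave 4 to 5. Members called lower in PINT shRNA1 against control (16) numbered 26 with 75th percentile scaling and 31 with median scaling. Their count was 12 to 17 when 1 library was left out and 11 to 31 otherwise. Members called lower in PINT shRNA1 with LPS against LPS (28) numbered 18 to 28 when 1 library was left out and 21 to 42 otherwise. The cause of these moves was not tested, and the shares of all tested genes called in each alternative are not given here. Summing rows of a repeated symbol changed nothing, because no member symbol was repeated, and the interaction uses all groups, so it has no fit of only the groups compared. Without counts, the depth behind a single value cannot be given.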

Other observations

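Read-through transcripts of members varied far more between libraries of a group than the members did. RPL36A-HNRNPH2, which joins RPL36A to the neighbouring HNRNPH2, had 20.1, 8.09 and 116 FPKM in PINT shRNA1 with LPS, 20.8, 22.6 and 7.25 in PINT shRNA1, 48.8, 142 and 6.77 in LPS and 17.3, 11.5 and 56.9 in control. RPL36A itself had 378, 383 and 316 FPKM in PINT shRNA1 with LPS, 408, 398 and 424 in PINT shRNA1, 373, 331 and 408 in LPS and 391, 410.3 and 378 in control. In each of the 4 groups, the library with the highest read-through value had the lowest RPL36A value. RPS10-NUDT3 was listed at 0 in all 3 PINT shRNA1 with LPS libraries and had 0.797, 0.595 and 0.647 FPKM in PINT shRNA1, while it was listed at 0 in 2 LPS libraries (1.06 FPKM in replicate 1) and in 1 control library (0.783 and 0.922 FPKM in replicates 1 and 3). Both were singled out after their values were seen.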
